A study of Drosophila melanogaster with 2 samples.

Results

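Peaks of CG17568, a predicted zinc finger protein of Drosophila melanogaster, were examined in the sequence next to the centromeres of 4 chromosome arms. A member was a peak of the pooled relaxed list, the long candidate list called on both replicates together, whose summit lay beyond 22000000 on 2L, beyond 22900000 on 3L, before 4600000 on 3R or beyond 22000000 on X (dm6). This position alone chose 357 of the 30000 pooled peaks. Of these, 10 were also in the list of 3396 peaks that the authors kept after thresholding on the irreproducible discovery rate (IDR), a measure of how well peak ranks agree between replicates. The comparison throughout was with the 24244 pooled peaks, 2789 of them IDR peaks, on the remaining parts of the same 4 arms.

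The samples were whole embryos of both sexes, 0 to 20 h old, from a transgenic fly line that stably expressed CG17568 fused to GFP at its C terminus. There was 1 group of 2 biological replicates, with chromatin sheared to 200 to 800 bp, and no untagged or untreated group. The antibody field names CG17568 and the assay field a transcription factor ChIP-seq, but a free-text field describes both samples as input. They were read as ChIP here, and every value depends on that reading. The labels do not say whether the endogenous gene was still present or which promoter drove the fusion, and whole embryos mix all cell types. The lists hold no read counts, so sequencing depth is unknown.

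Pericentromeric heterochromatin is the compact, repeat-rich chromatin that flanks centromeres. In Drosophila it carries histone H3 methylated at lysine 9 and the protein HP1, and it silences most euchromatic genes moved into it. It also holds a small set of essential genes that are transcribed there, among them light (lt) and several ribosomal protein genes. Its satellite blocks are mostly missing from the assembly, so the members lie in the assembled edge of the compartment.

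As a whole, the sequence of the zone had the features that its name implies, although no histone mark was measured here. Annotated transposons covered 15.1% of its bases against 3.93% of the remaining arms, and 47.3% against 95.0% of its 50-base words occurred once in the genome. It held 16.3 protein-coding genes per Mb, against 115 in the remaining parts, and its GC content was 39.9% against 42.4%. These averages do not describe the outer 500 kb of 3R, which held 97 of the members. That stretch had 194 relaxed peaks per Mb of assembled bases and 223 per Mb of unique words. The closeness of these values means that most of its words were unique. The boundaries are round positions, and the peaks beside them were weak or moderate. The nearest member to the 3R boundary lay 55 bp inside it, near lncRNA:CR44317, with a signal of 37.7, and the nearest peak outside lay 513 bp away with a signal of 33.2. On 3L the nearest inside was a summit 289 bp from the TSS of CG12768 (signal 117.6), and the nearest outside was 98 bp from that of slif (82.7). On 2L they were near lncRNA:CR33987 (79.5) and CG2528 (50.6). On X the nearest member lay 443530 bp inside, near CG14621 (70.1), and the nearest peak outside lay 363981 bp away, near lncRNA:flam (39.3). Signal is the score that the authors' peak caller gave each peak. It has no stated scale, so it is compared only among peaks of the same list.

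The sequences under the strongest members are shown first, since these are the sites that reached the IDR list with the highest signal. Each shows the summit with 50 bases on either side, plus strand, 5′ to 3′, read from the RefSeq copy of the Release 6 genome. The windows of 3 of the 6 strongest, at RpL15, RpL5 and RpL10, overlap untranslated regions and are not printed. Capitals mark GAGAG (GAGA factor) or a run of 8 A on either strand.

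CG31523, intron, chr3R:4478273-4478373: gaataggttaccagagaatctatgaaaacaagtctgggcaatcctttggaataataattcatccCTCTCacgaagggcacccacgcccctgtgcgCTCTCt
asRNA:CR45999, 169 bp upstream, chr3R:4395330-4395430: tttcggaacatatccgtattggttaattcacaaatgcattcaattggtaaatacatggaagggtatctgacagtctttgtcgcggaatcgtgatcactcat
asRNA:CR43629, exon, chr3R:4453583-4453683: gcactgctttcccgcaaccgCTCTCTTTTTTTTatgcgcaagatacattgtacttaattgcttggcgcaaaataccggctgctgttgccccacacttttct

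The windows of CG31523 and asRNA:CR43629 hold GAGAG on the minus strand, in the latter joined to a T run. That of asRNA:CR45999 holds none of the words marked. All 3 windows, like those of the other 7 IDR members, consist of 50-base words found once in the genome, and no IDR member lay in an annotated transposon.

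A further set was chosen after its values were seen, because it carries a motif that was more common among the members than elsewhere. Of the 8 members whose window holds TATCGATA, the 4 with a summit in an intron are printed, and the other 4 were intergenic. TATCGATA is the DNA replication-related element (DRE), a promoter word recognised by DREF and, in part, by BEAF-32. Capitals mark TATCGATA, GAGAG and TATAAA on either strand. TATCGATA is its own reverse complement.

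nrm, intron, chr3L:23015922-23016022: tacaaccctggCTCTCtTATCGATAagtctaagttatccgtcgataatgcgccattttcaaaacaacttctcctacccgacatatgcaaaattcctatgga
nrm, intron, chr3L:23000336-23000436: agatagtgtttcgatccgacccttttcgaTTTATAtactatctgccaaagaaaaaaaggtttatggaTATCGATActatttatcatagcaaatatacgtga
nrm, intron, chr3L:23021418-23021518: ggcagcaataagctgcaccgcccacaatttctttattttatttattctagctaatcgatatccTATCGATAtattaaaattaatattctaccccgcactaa
CG12576, intron, chrX:22476677-22476777: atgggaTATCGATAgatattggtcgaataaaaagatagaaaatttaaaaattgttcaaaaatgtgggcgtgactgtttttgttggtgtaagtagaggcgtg

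The first question was how many listed peaks the zone carried. The authors deposited the relaxed list as peaks and background together, so a relaxed peak need not be a binding site. The −log10 q-value, higher for more confident peaks, had a median of 0.488 among the members and 0.601 among the other peaks. Its lowest value among the IDR members was 2.10. Pooled relaxed peaks were far sparser in it than on the rest of the arms, and IDR peaks were rarer still. The zone had 28.2 relaxed peaks per Mb of assembled bases against 257, a density ratio of 0.110 (95% exact interval 0.0986 to 0.122). IDR peaks stood at 0.790 against 29.6 per Mb, a ratio of 0.0267 (0.0128 to 0.0492, exact binomial test, two-sided, adjusted p = 1.2e-133). Adjusted p-values are over the 8 main comparisons, except for those of the rank bands below, which are over the 3 bands. Peaks and genes are not replicates, so these tests and intervals cover counting error only.

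Much of the zone is sequence in which short reads cannot be placed uniquely, and the density gap was smaller where they can. Counting only positions where at least 90% of the 50-base words within 100 bp were unique, the zone kept 4.39 of its 12.7 Mb and the remaining arms 89.1 of 94.4 Mb. Relaxed peaks then stood at 79.1 against 271 per Mb, a ratio of 0.292. IDR peaks stood at 2.28 against 31.3 per Mb, a ratio of 0.0729, with adjusted p = 2.9e-43 by the exact binomial test. Moving all boundaries 500 kb towards the centromere lowered the ratios to 0.0526 for relaxed and 0.0126 for IDR peaks, and moving them outward raised them to 0.230 and 0.108. With the 6792 highest pooled peaks in place of the IDR list the ratio was 0.0407.

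Every arm showed the same order. Relaxed peaks numbered 78 on 2L, 100 on 3L, 117 on 3R and 62 on X, and IDR members 1, 4, 4 and 1. The zones of the 4 arms held 19.6 to 51.5 relaxed peaks per Mb, and their remaining parts 202 to 315. For IDR peaks the ranges were 0.661 to 0.874 and 23.8 to 34.5 per Mb. The ranges of the zones and the remaining parts did not overlap in either list. Set against genes the gap in relaxed peaks was narrower, with 1.73 per protein-coding gene in the zone and 2.24 outside it. By arm these values overlapped, at 1.05 to 2.38 in the zones and 1.93 to 2.67 outside them. IDR peaks stood at 4.85 per 100 protein-coding genes in the zone and 25.8 outside it.

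**Figure D1:**
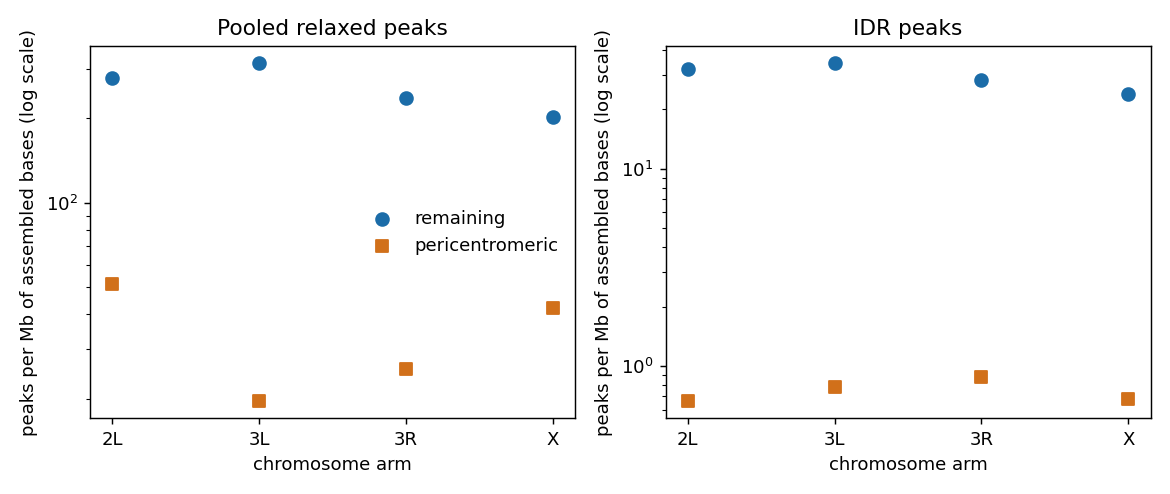
Peaks per Mb of assembled bases (log scale) on each arm, for pooled relaxed peaks (left) and IDR peaks (right), in the pericentromeric zone (orange squares) and the remaining part of the arm (blue circles). Each point is 1 arm; the orange points lie below the blue ones on all 4 arms, at 19.6 to 51.5 against 202 to 315 relaxed peaks per Mb.

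Members were concentrated at the edge of the zone that faces the arm on 2L, 3L and 3R, but not on X. Within 500 kb of the boundary lay 212 of the 357 members (59.4%, 95% Wilson interval 54.2 to 64.4) and 6 of the 10 IDR members. Density was 110 relaxed peaks per Mb there, 34.0 from 0.5 to 1 Mb, 15.1 from 1 to 2 Mb and 5.46 beyond 2 Mb, where only 3L and 3R have sequence. The share within 500 kb was 65.4% on 2L, 49% on 3L, 82.9% on 3R and 24.2% on X. On 3R these outer 500 kb held 194 relaxed peaks per Mb, not far below the 236 on the remaining part of that arm. The gap was wider on 2L (102 against 277), 3L (98.0 against 315) and X (34.4 against 202). All 4 IDR members of 3R, the strongest member among them, lay in this outer part of 3R, where relaxed peaks were little depleted. On X density was 34.4, 42.0 and 48.1 per Mb from the first distance to the third, and on 3L it was 98.0, 12.0, 15.0 and 9.68. Summed over the arms, the arm side of the boundary gave 255, 227, 205 and 273 per Mb at the same 4 distances, with no such decline. These values are not given by arm, and on X the nearest peak outside the boundary lay 363981 bp away. The share of unique 50-base words also declined inward, from 66.0% to 61.9%, 45.0% and 38.7%. Per Mb of unique words the zone held 166, 55.0, 33.5 and 14.1 relaxed peaks at the 4 distances, and that of X held 129, 49.2 and 139 at the first 3.

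**Figure D2:**
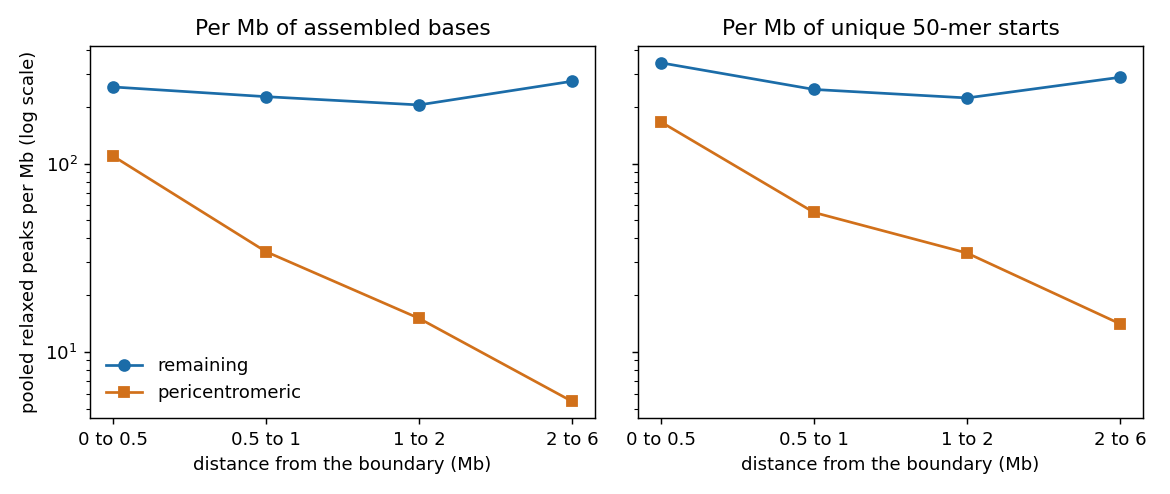
Pooled relaxed peaks per Mb (log scale) by distance from the boundary, summed over the arms (beyond 2 Mb on the pericentromeric side only 3L and 3R), per Mb of assembled bases (left) and per Mb of unique 50-base words (right). The pericentromeric line (orange squares) runs from 110 to 5.46 on the left and from 166 to 14.1 on the right, while the line for the arm side (blue circles) stays between 205 and 342 over both panels. X alone does not show the decline.

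Members were also separated by long stretches with no peak. Of the 353 gaps between neighbouring members, 24 exceeded 100 kb, against 30 of 24240 gaps on the remaining arms, and the median gap was 2437 against 1222 bp. The longest, on 3R, ran from 566971 to 3623311, a stretch of 3056 kb with 5 protein-coding genes and 43.6% unique words. It begins at the start of Myo81F, a myosin gene 1966 kb long, and spans Pzl, which encodes the mechanosensitive channel Piezo-like. The longest gaps between neighbouring members on 3L, 2L and X were 891, 278 and 102 kb. Stretches before the first or after the last member of a zone were not counted as gaps. On X the first member lay 443530 bp inside the boundary, and the highest peak end was 23106226 on an arm of 23542271 bp. The members nearest the centromere lay beside gene starts and outside the IDR list, with signals above the members' median of 42.5. They were 13 bp from the TSS of Tim23 on 2L, 270 bp from that of l(3)80Fj on 3L, 105 bp from that of Myo81F on 3R and 26 bp from that of ATbp on X, with signals of 45.6 to 57.5.

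The second question was whether the members were as strong as other peaks. Of all 30000 pooled relaxed peaks, 11.3% were in the IDR list. Among the members the share was 2.80% (10 of 357, 95% Wilson interval 1.53 to 5.08), against 11.5% (11.1 to 11.9) on the remaining arms, and a two-sided Fisher's exact test gave an odds ratio of 0.222 with adjusted p = 7.5e-09. It was 1.28% to 4% in the zones of the 4 arms and 10.9% to 11.9% outside them. The IDR list consisted of exactly the 3396 pooled peaks of highest signal, so this share is a statement about signal rank. The gap was present among promoter summits alone (5.47% against 22.0%) and among other summits alone (1.31% against 8.56%, an odds ratio of 0.142). With the boundaries 500 kb outward the odds ratio was 0.437.

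The whole distribution of the members lay towards weaker signal. Their pooled signals ran from 31.9 to 403.7 with a median of 42.5, against a median of 51.4 and a maximum of 2297 outside. Their median rank was 20071, against 14929.5. At the weak end of the list, ranks 20001 to 30000, lay 50.4% of the members and 33.1% of the other peaks. No member ranked above 415.

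The third question was whether the members were found in each replicate. A summit within 100 bp in both replicate lists, each of 30000 peaks, was present for 105 of 357 members (29.4%, 24.9 to 34.3) and for 44.0% of the other peaks (43.4 to 44.7). A two-sided Fisher's exact test gave 0.529 as the odds ratio, with adjusted p = 3.0e-08. Replicate 1 held 200 of the members, replicate 2 held 216, and 46 were in neither list. Recovery depended on rank, and among peaks of like rank no difference was detected. At ranks 3397 to 10000 it was 78.0% of 50 members against 77.8%, at ranks 10001 to 20000 37.6% of 117 against 41.1%, and at ranks 20001 to 30000 6.67% of 180 against 7.03%. In Fisher's exact tests the odds ratios were 1.01, 0.863 and 0.944, each with adjusted p = 1. These bands were chosen after the pooled result was seen. Pooled rank comes from the same replicates in which recovery was scored, so the bands cannot decide why recovery differed.

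**Figure D3:**
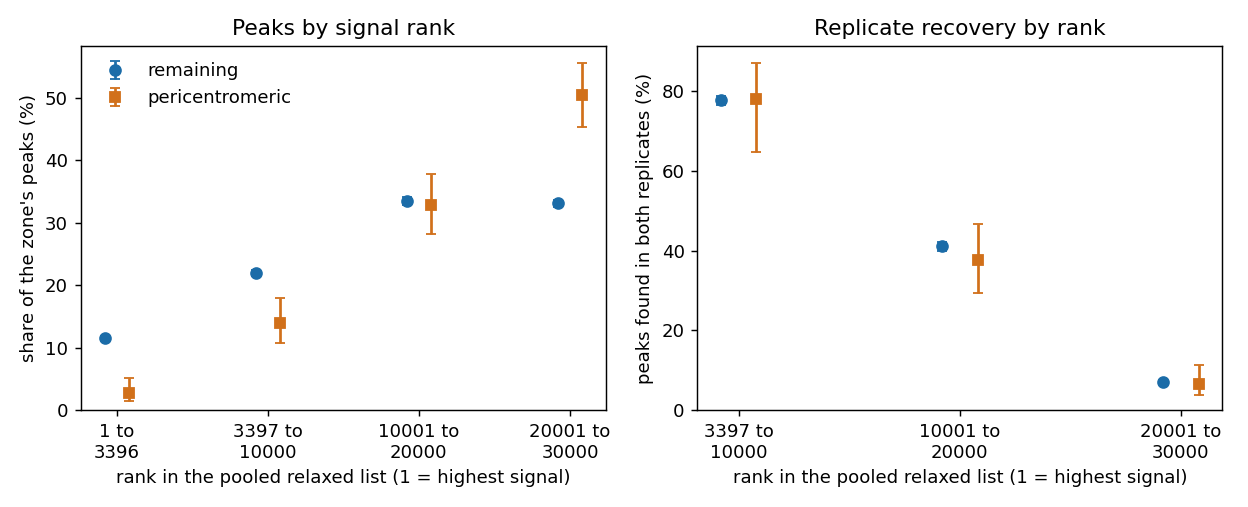
Left, the share of each zone's pooled relaxed peaks in 4 bands of signal rank; right, the share found within 100 bp in both replicate lists, for the 3 bands outside the IDR list. Orange squares are pericentromeric and blue circles remaining peaks, with 95% Wilson intervals as bars (counting error only). On the left 50.4% of the members fall in the weakest band; on the right the intervals of both zones overlap in every band.

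All 10 IDR members had a summit within 100 bp in both replicate lists, as did 94.5% of the other IDR peaks, a difference of 5.49 percentage points (Fisher's exact test, adjusted p = 1), but pooled calling already favours such peaks. In the 3396 highest of both replicates lay 6 of the 10, against 65.9% outside. The relaxed lists of replicate 1 and replicate 2 held 365 and 363 pericentromeric peaks, and 9 of the 3396 highest in each lay in the zone.

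The strongest member was an intronic site in CG31523, a predicted fatty acid elongase, 526 bp downstream of its TSS on 3R. Its signal was 403.7 in the pooled list, 196.9 in replicate 1 and 196.8 in replicate 2, and it ranked 415, 445 and 491 in these lists. Ranks below are given in the same order. The next strongest lay 169 bp upstream of asRNA:CR45999 on 3R, outside any gene, with a signal of 268.5 and ranks of 904, 839 and 1050. The third was 82 bp inside asRNA:CR43629, which lies within CG31522, another predicted elongase, with a signal of 229.98 and ranks of 1176, 1227 and 1377. A peak has no strand, so this summit cannot be assigned to the antisense RNA rather than to CG31522, whose own TSS lay 317 bp away. The 3 sites lie 122 to 205 kb from the boundary of 3R and ranked alike in both replicates.

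Ribosomal protein genes supplied the next 3 members. RpL15, a protein of the large ribosomal subunit, had a summit in its 5′ UTR 62 bp from the TSS on 3L, with a signal of 222.3 and ranks of 1256, 1444 and 1388. It was also the IDR member deepest on 3L, 4367 kb inside the boundary. RpL5, another large-subunit protein, had one in its 5′ UTR 40 bp from the TSS on 2L, with a signal of 211.1 and ranks of 1394, 1272 and 1498. RpL10 on 3L had one 78 bp from its TSS with a signal of 178.1. It ranked 1883 in the pooled list and 1084 in replicate 1 (signal 124.8), but 5354 in replicate 2 (signal 53.5). The only other cytoplasmic ribosomal protein gene found in the zone, RpL21, had a summit 2 bp from its TSS. Its signal was 38.9, outside the IDR list. Thus 3 of 4 such genes had an IDR summit within 500 bp of a TSS. So did 6 of the 206 protein-coding genes of the zone (2.91%) and 10.4% over the 4 arms. The gene mRpS5 on 3L, for a mitochondrial ribosomal protein, was not counted among the 4. Its highest signal within 500 bp of a TSS was 56.0, outside the IDR list. The set was noted after the values were seen and not tested.

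The other 4 IDR members had lower pooled signals. CkIIalpha, the catalytic subunit of casein kinase 2, had a summit 202 bp downstream of its TSS on 3L, ranked 2715, 9030 and 3746, with signals of 144.0, 38.5 and 65.4. In introns of fog, a secreted ligand for cell shape change in gastrulation, a summit on X ranked 2767, 3988 and 2847. It lay also within CG42346, which overlaps fog. In an intron of aux, the fly auxilin, a summit on 3R ranked 3149, 3080 and 2866, with CG14636 as the nearest TSS. The last, 214 bp upstream of scro, a homeobox gene of the NK family, ranked 3366, 3952 and 5167. Just below the IDR cutoff stood members near CG14636 (signal 119.4), CG17159 (118.2), CG12768 (117.6), Grl40a, a gustatory-receptor-like gene (113.9), and Clamp, a zinc finger protein of dosage compensation (106.6). All 5 had a summit within 100 bp in both replicate lists.

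**Figure D4:**
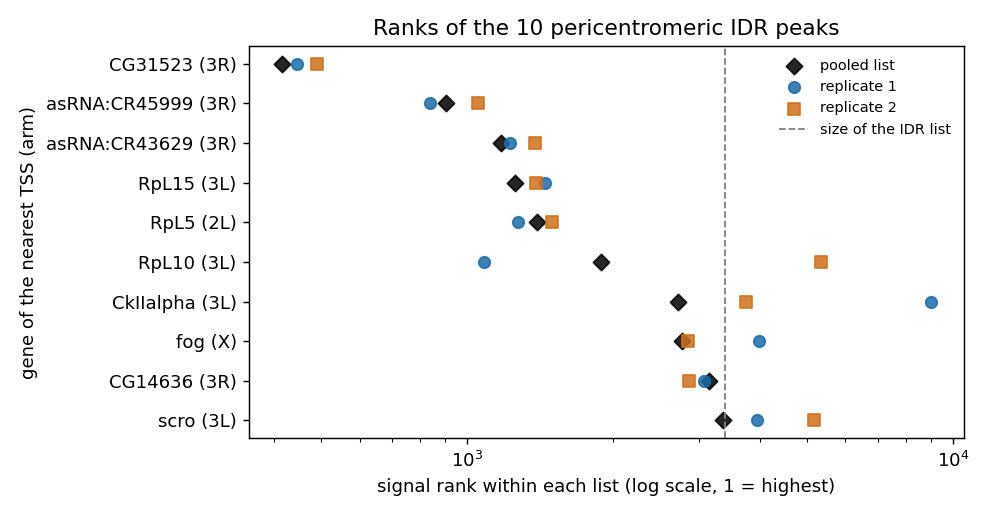
Signal rank (log scale, 1 = highest) of the 10 pericentromeric IDR peaks in the pooled list (black diamonds), replicate 1 (blue circles) and replicate 2 (orange squares), each list holding 30000 peaks. Rows carry the gene of the nearest TSS and the arm, and the dashed line marks the 3396 peaks of the IDR list. The 5 strongest sites lie left of the line in every list; CkIIalpha at 9030 and RpL10 at 5354 are the points farthest right in replicate 1 and in replicate 2.

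The fourth question was where in genes the members lay. A promoter summit, one at most 500 bp from any annotated TSS, was found for 35.9% of the members (128 of 357, 31.1 to 41.0) and 21.8% of the other peaks (21.3 to 22.3). The odds ratio was 2.00, with adjusted p = 5.8e-09 in a two-sided Fisher's exact test. The share was 33.3% to 38.7% in the zones of the 4 arms and 20.5% to 22.8% outside them. The median distance to a TSS was 1001 bp against 2296 bp. Of the IDR members, 7 of 10 lay at promoters against 41.8%, an odds ratio of 3.25 that missed the threshold of 0.05 (two-sided Fisher's exact test, adjusted p = 0.121). That comparison depended on the settings. The odds ratio was 1.37 without 3L (Fisher's exact test, adjusted p = 0.802) and 1.49 with replicate 2 alone (0.846), while it passed the threshold at promoter windows of 250 bp (5.15) and 1000 bp (8.09) and with replicate 1 alone (4.93).

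Exons held more of the members, and introns fewer, than of the other peaks, without a test of each feature. The 5′ UTR held 9.80% against 6.58%, the 3′ UTR 7.28% against 3.95%, coding sequence 3.08% against 1.20%, introns 48.2% against 56.7% and intergenic sequence 26.9% against 29.2%. The zone itself is 0.542% 5′ UTR, 1.01% 3′ UTR, 2.54% coding, 42.0% intron and 53.0% intergenic, and the remaining arms 3.71%, 5.55%, 18.5%, 43.4% and 27.0%. Promoter summits lay upstream of the TSS in 48.4% (39.95 to 57.01) of the members and 58.8% (57.5 to 60.2) of the others.

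Counted by gene, weak summits were more common at pericentromeric promoters and strong ones rarer. Over the 4 arms, 10.4% of the 11013 protein-coding genes had an IDR summit within 500 bp of a TSS, and are called bound. In the zone 6 of 206 were bound (2.91%, 1.34 to 6.21) and outside it 10.6% (10.01 to 11.2). The odds ratio was 0.254, and adjusted p = 9.8e-05 in a two-sided Fisher's exact test. With the boundaries 500 kb further in, 3 of 79 were bound, an odds ratio of 0.334 that missed the threshold (Fisher's exact test, adjusted p = 0.0831). The ratio was 0.109 without 3L, 0.146 with replicate 2 alone, 0.479 when the 6792 highest pooled peaks counted and 0.535 with the boundaries 500 kb outward, each past the threshold. The 6 were CG31522, RpL15, RpL5, RpL10, CkIIalpha and scro. When any relaxed summit counted, 84 of 206 genes had one (40.8%, 34.3 to 47.6) against 29.5% outside (28.6 to 30.3), and Fisher's exact test gave an odds ratio of 1.65 with p = 6.7e-04. Of the genes with any summit, 7.14% against 35.9% were bound, and Fisher's exact test gave an odds ratio of 0.137 with p = 1.9e-09. The last 2 comparisons were added after the first was seen.

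Among the genes with a relaxed summit but no IDR summit within 500 bp of a TSS were several known from other work. The gene su(f), a factor of mRNA 3′ end formation, had a highest signal of 86.8, at 252 bp. The putative transcription factor gene tio, a paralogue of teashirt, had 79.5 at 15 bp, and the ribosomal S6 kinase gene S6kII had 79.1 at 12 bp. The adherens junction gene alpha-Cat had 76.6 at 86 bp. CG3651 had 105.8, and CG31523, whose intronic IDR summit lies just outside that window, had 103.6.

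A list of 30 symbols, meant to hold genes long studied as residents of heterochromatin, was followed. Of these, 27 matched the annotation and 23 had a TSS in the zone. Alg10, DIP1, mAChR-C and SMC3 lay outside the zone and are not counted below. The symbol Cht3 was matched to Cht10. A relaxed summit lay within 500 bp of a TSS in 15 of the 23, and 3 were bound, RpL5, RpL15 and scro. Over all 206 coding genes of the zone, 84 (40.8%) had a relaxed summit there and 6 (2.91%) were bound, and 10.4% were bound over the 4 arms. The median of the highest signal at these 15 was 67.0, against 62.4 over all pericentromeric coding genes with a summit. The genes stnA and stnB share a summit and both count among the 23 and the 15, and its signal is this median of 67.0. The pigment granule gene lt, which needs heterochromatin for its normal expression, had a signal of 32.3 at 118 bp. The G protein alpha subunit cta had 63.9 at 220 bp, the RNA helicase Dbp80 75.6 at 39 bp, the cohesin subunit vtd 62.1 at 158 bp, and the histone methyltransferase Set1 38.8 at 45 bp. The cell adhesion gene nrm, the dicistronic pair stnA and stnB, fog, the chitinase gene Cht10, and Myo81F had signals of 51.4, 67.0, 67.7, 52.4 and 45.6. No summit lay within 500 bp of a TSS of Parp1, AGO3, eIF4B, Snap25, Spf45, Pzl, Gpb5 or lovit. The nearest relaxed summits were 36257 bp from Parp1, a poly(ADP-ribose) polymerase, 140432 bp from the piRNA protein gene AGO3 and 341718 bp from lovit.

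Some genes held many members. Annotated genes contained 261 of the 357, spread over 104 genes, and the 14 genes with 5 or more contained 112. CG42748 on 2L, 35.0 kb long, held 18, with a highest signal of 95.7 and none in the IDR list. CG34357 and nrm held 12 each, CG31523 held 11, and CG17167 and cpx, the synaptic protein complexin, held 8 each. These members share a gene and are not independent.

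Transposons contained a larger share of the members than of the other peaks, in both zones below their share of the bases; this was not tested. Of the members, 35 (9.80%, 7.13 to 13.3) had their summit in an annotated transposon, against 113 of 24244 (0.466%, 0.388 to 0.560), where transposons cover 15.1% and 3.93% of the bases. They belonged to 12 families. INE-1, a short and old element, contained 19, 1360 contained 5, and Cr1a contained 2. Their signals were low, from 31.9 to 68.3 with a median of 36.9. All 50-base words around the summit were unique for 28 of the 35, and 9 were found in both replicates. Over all members, 95.8% had fully unique words around the summit, against 99.6% outside.

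Of the 9 sequence words examined, TATAAA and TATCGATA were those whose interval at the members lay wholly above the share at other peaks. Each interval treats the summits as independent. GAGAG occurred within 50 bp of 10.9% of their summits (8.09 to 14.6) and of 11.5% of the other summits. It was present in 12.0% of all windows of the same length in the zone and 11.3% outside. TATAAA, the TATA box word, was at 24.4% (20.2 to 29.1) against 18.9%, with 13.6% and 11.5% of all windows. CGATA, a word shared by BEAF-32 and DREF sites and contained in TATCGATA, was at 14.3% (11.0 to 18.3) against 11.4%, with 12.6% and 11.0% of all windows. The E-box CAGCTG was at 3.36% against 3.42%, the Zelda word CAGGTAG at 0.280% against 0.388%, and the run of 8 A at 8.40% against 11.5%. Of all windows in the zone and outside it, CAGCTG was in 2.45% and 4.50%, and CAGGTAG in 0.549% and 0.519%. The run of 8 A was in 4.77% and 5.80%. The satellite repeat units AAGAG and AATAT were at 19.0% against 18.9% and 45.1% against 40.7%. All windows held AAGAG in 19.6% and 16.9%, and AATAT in 34.1% and 29.3%. Each word was sought on both strands.

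Words that marked IDR summits on the remaining arms were not found at the IDR members. The 5 words of 8 letters with the highest odds ratio there against flanks 300 bp away were AATATTGA, TAGGTAAA, CTTAACAA, ATATTGAT and ATATGATA. Such a ranking is unstable for rare words, such as TAGGTAAA and CTTAACAA at 31 and 28 of 2789 summits. On simulated windows it recovered a planted, more common word at the sizes used here but missed it with fewer windows. At least 1 of them lay at 7.14% of those IDR summits, the set that chose them, and at 0 of the 10 IDR members (95% Wilson interval 0 to 27.8), so 10 peaks cannot show a difference. Over all relaxed peaks the share was 4.20% (2.56 to 6.82) in the zone and 3.89% (3.65 to 4.14) outside it.

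TATCGATA showed the widest gap among the words in relative terms. It lay at 8 of 357 member summits (2.24%, 1.14 to 4.36), against 0.379% (0.310 to 0.465) of the others, while 0.437% and 0.242% of all windows held it. This was noticed in the data and not tested. Outside promoters it was at 7 of 229 members (3.06%, 1.49 to 6.17) against 0.206%, and at promoters at 1 of 128 against 1.00%. The 8 sites were weak, with signals of 32.9 to 44.2 and none in the IDR list. The 3 printed above for nrm had signals of 44.2, 38.1 and 36.9, and the first was found in both replicates. The site in CG12576 had 41.5 and was also found in both. The other 4 lay near Tim17b, lncRNA:CR46480 and, for a pair of them, tplus3b. No other site of the 8 was found in both replicates. Of the 8, 3 lay in annotated transposons, all of the INE-1 family. These were the third nrm site printed, the CG12576 site and 1 of the pair near tplus3b. Sites that share a gene or a transposon family are not independent, which the interval above ignores.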

How the data were processed

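The authors deposited 4 peak lists on dm6: relaxed lists of 30000 peaks for replicate 1, replicate 2 and both pooled, and the IDR list of 3396. Per the text deposited with the lists they are narrowPeak files. Each peak has a signal score and a −log10 q-value from the authors' peak caller, and a summit offset. The p-value column held -1 throughout. For the peak caller, aligner, IDR cutoff and read depth, the sources used here give nothing.

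Summits were placed on Release 6 sequence and Ensembl release 115 gene models, which also gave the transposons; transposons were left out of the genes. A 50-base word was unique if it occurred once on either strand of the assembly. Fisher's exact test compared shares and an exact binomial test compared densities, both two-sided, with Benjamini-Hochberg adjustment over 8 comparisons; tests added later were adjusted over their own set or not at all. Intervals are Wilson 95% for shares. Scripts used Python 3.11.15, NumPy 2.4.6, pandas 2.3.3 and SciPy 1.17.1 and were tested on simulated data.

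Named items were the IDR members, the next 5 members by signal, bound coding genes, matched genes of the list of 30 symbols, and the peaks nearest each boundary. The relaxed members nearest each centromere, genes with 5 or more members, genes with a relaxed summit, ribosomal protein genes and TATCGATA sites were named after their values were seen. The members and lists were chosen with earlier results of these data known.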

Additional observations from a re-analysis of the deposited data

How the results depend on the processing

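Values here are odds or density ratios of the pericentromeric zone to the remaining arms. The alternatives moved the boundaries by 500 kb, left out an arm, kept unique sequence only, or changed the promoter window, the list size, the match distance or the replicate used. The densities, the IDR share and the promoter share of relaxed peaks kept direction and threshold in every alternative run: 0.0526 to 0.292 for relaxed density, 0.0126 to 0.108 for IDR density, 0.142 to 0.437 for the IDR share and 1.34 to 2.32 for the promoter share. The promoter share of IDR peaks passed the threshold at 2.07 with boundaries 500 kb outward, 4.79 without X, 5.15 and 8.09 with windows of 250 and 1000 bp, 2.80 with 6792 pooled peaks, and at 4.93 with replicate 1 alone, but not at 1.49 with replicate 2 alone or 1.37 without 3L. Bound coding promoters missed the threshold at 0.334 with boundaries inward, and reversed to 1.65 when any relaxed summit counted. Replicate recovery of IDR peaks, a difference of 5.49 percentage points, reversed to -3.10 with boundaries outward and to -5.94 among the highest peaks of each replicate. That of relaxed peaks was 1.01, 0.863 and 0.944 within rank bands, so the pooled difference was not detected among peaks of like rank. The cause was not tested for any of these changes. The rank bands and the call by any relaxed summit were chosen after seeing the data.

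With 1 replicate alone the other ratios were 0.196 to 0.198 for the IDR share, 0.0243 for IDR density, 0.112 to 0.113 for relaxed density, 1.69 to 1.90 for the promoter share of relaxed peaks and 0.146 to 0.254 for bound promoters. Replicate 1 alone gave the same counts of bound genes as the IDR list, 6 and 1143, but shared 5 and 964 of them with it; replicate 2 gave 4 and 1291, of which 3 and 1010 were shared. No paired analysis was possible because there is 1 group. Depth is unknown, 10 IDR members limit every share among them, and reads that map to several places could not be assessed from peak lists.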
